A study of Mus musculus with 8 samples.

Results

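The genes described here encode 10 subunits of the mouse SWI/SNF chromatin remodelling complexes, namely Smarca2, Smarca4, Smarcb1, Smarcc1, Smarcc2, Smarcd1, Smarce1, Arid1a, Arid1b and Arid2. They were chosen by name, with earlier results of these data known. ASH2L binding sites were assigned to them by position, as sites centred within 1 kb of a transcription start site (TSS) of the gene, within 3 kb of one, or inside the gene body. The 10 genes belong to 21938 protein-coding genes on the assembled chromosomes, and 16 of the 6444 listed sites were assigned to them. ChIP-seq was performed in iMEF cells, which are immortalised mouse embryo fibroblasts with floxed Ash2l alleles and a tamoxifen-inducible Cre-ER recombinase. All libraries came from cells in which a lentiviral fusion of human ASH2L with an FKBP degradation tag and HA epitopes (FKBP-HA2-ASH2L) had been introduced and the endogenous gene had been disrupted by Cre. Such cells were selected as single-cell clones, and the clone behind these libraries is not stated in the sources used here. The study reports that most of its later work used the clone NG3, which it names for its ChIP-seq of histone marks. There were 8 libraries, 2 replicates in each of 4 groups, that is ASH2L precipitates without treatment, ASH2L precipitates after 1 h of dTAG (a compound that links the FKBP tag to a ubiquitin ligase so that the fusion protein is degraded), and an input for each of these conditions. The list analysed here is the union of sites over all samples and gives a chromosome, a start and an end per site. It holds no value per sample, so no replicate error or read depth stands behind a site, the effect of dTAG at these genes was not analysed here, and no test between groups was made. A gene without a listed site is a gene at which no site was called, which does not exclude binding.

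SWI/SNF complexes use the energy of ATP to slide or evict nucleosomes, and thereby open chromatin at promoters and enhancers. Each complex holds 1 of the alternative ATPases SMARCA2 or SMARCA4, together with SMARCC and SMARCD proteins. The canonical BAF and the PBAF complexes also hold SMARCB1, SMARCE1 and an ARID subunit, which the non-canonical BAF complexes lack. ARID1A and ARID1B are alternative subunits of canonical BAF, whereas ARID2 belongs to the polybromo-associated PBAF. ASH2L is a core component of the KMT2 methyltransferase complexes, which methylate lysine 4 of histone H3, a modification found at active promoters and often at CpG islands (CGIs).

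An ASH2L site was listed at 7 of the subunit genes, and the other 3 had none in any of the regions considered. Promoter sites, meaning sites centred no farther than 1 kb from a TSS, were found at Smarca2, Smarcc1, Smarcd1, Smarce1, Arid1a, Arid1b and Arid2, that is at 7 of 10 genes, where 14.0% of all protein-coding genes had one. The same 7 genes had a site within 3 kb of a TSS, against 15.4% of all protein-coding genes, and the same 7 had a site centred in the gene body, against 15.8%. These counts rest largely on the same sites, since only 2 genes had a gene-body site farther than 1 kb from every TSS. The subunit genes were also longer, with a median of 82.9 kb against 17.4 kb over all protein-coding genes. Smarca4, Smarcb1 and Smarcc2 had no site in any of these regions. A CpG island lay within 1 kb of at least 1 TSS of all 10 subunit genes, and among the 12878 protein-coding genes with such an island 22.9% had a promoter site. The subunit genes had a median of 6 annotated TSSs, compared with 3 over all protein-coding genes, so that more positions counted as promoter. Among genes with both a CpG island and at least 6 TSSs, 27.8% had a promoter site. The share of 7 in 10 lay above each of these backgrounds, and it is given as a description without a test, since the 10 genes were chosen with earlier results of these data known. The same share among 18 other SWI/SNF subunit genes, described further on, was 44.4%.

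**Figure D1:**
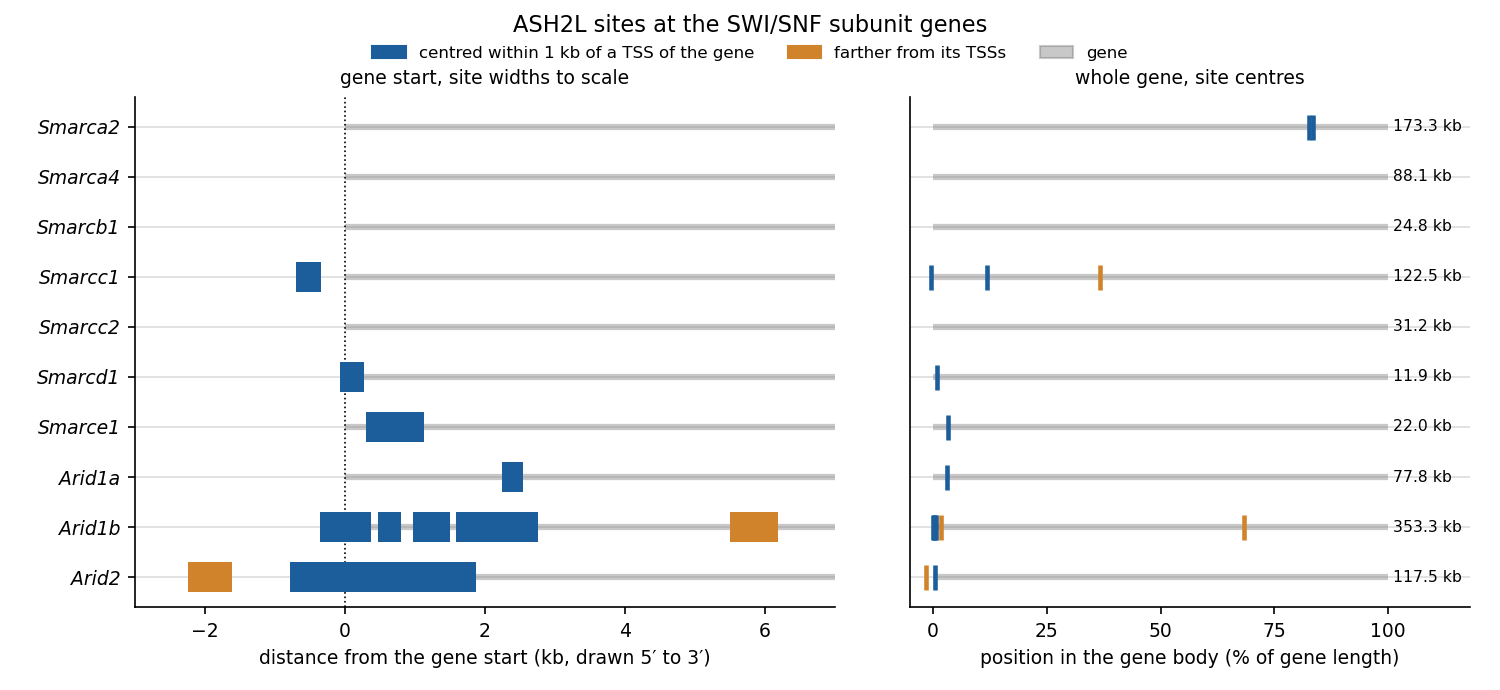
Position of the 16 ASH2L sites at the 10 subunit genes. Left, distance from the gene start in kb with site widths drawn to scale; right, site centres as a percentage of gene length, with gene lengths printed at the side. Blue, sites centred within 1 kb of a TSS of the gene; orange, other sites. Arid1b carries 4 adjacent promoter sites, the Smarca2 sites lie far from the gene start, and Smarca4, Smarcb1 and Smarcc2 are empty.

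The DNA under the sites and at the empty promoters is shown in part below, to compare base composition between a site inside a gene, sites at CpG islands and CpG islands without a site. All stretches were read from GRCm38.p6 (mm10) and are written 5′ to 3′ on the strand of the gene, with CpG dinucleotides in capitals. Untranslated regions were left out, so each line is a stretch of the site or promoter and not its whole length. The stretches from sites are as follows.
Smarca2, chr19:26748083-26748163, + strand: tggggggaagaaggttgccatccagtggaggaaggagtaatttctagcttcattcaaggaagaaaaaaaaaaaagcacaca
Smarcc1, chr9:110132117-110132306, + strand: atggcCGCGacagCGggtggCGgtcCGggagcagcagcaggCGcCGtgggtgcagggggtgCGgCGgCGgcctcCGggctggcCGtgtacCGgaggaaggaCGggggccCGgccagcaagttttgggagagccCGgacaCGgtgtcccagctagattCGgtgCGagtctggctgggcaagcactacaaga
Smarcd1, chr15:99702322-99702399, + strand: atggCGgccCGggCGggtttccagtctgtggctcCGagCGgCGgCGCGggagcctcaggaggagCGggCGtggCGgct
Smarce1, chr11:99230041-99230240, - strand: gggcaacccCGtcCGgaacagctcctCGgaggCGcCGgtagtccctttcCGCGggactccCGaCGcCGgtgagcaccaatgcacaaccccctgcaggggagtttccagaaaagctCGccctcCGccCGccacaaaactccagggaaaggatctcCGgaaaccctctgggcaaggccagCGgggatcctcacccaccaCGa
Arid1a, chr4:133754358-133754517, - strand: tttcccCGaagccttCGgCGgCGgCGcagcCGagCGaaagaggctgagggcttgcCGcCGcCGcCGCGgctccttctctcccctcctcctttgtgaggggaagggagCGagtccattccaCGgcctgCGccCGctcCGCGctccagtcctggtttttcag
Arid1b, chr17:4994034-4994233, + strand: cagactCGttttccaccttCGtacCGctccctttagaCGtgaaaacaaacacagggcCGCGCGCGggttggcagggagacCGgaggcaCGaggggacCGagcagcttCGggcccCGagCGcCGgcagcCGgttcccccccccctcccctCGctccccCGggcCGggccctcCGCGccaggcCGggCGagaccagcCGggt
Arid2, chr15:96288441-96288640, + strand: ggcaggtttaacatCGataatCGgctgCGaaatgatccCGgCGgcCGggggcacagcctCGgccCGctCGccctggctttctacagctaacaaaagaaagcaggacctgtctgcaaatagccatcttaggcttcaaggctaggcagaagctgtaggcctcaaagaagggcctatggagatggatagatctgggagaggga
The stretch from Smarca2 held 0 CpG dinucleotides in 81 bases. The stretch from Smarcc1, which opens the coding sequence, held 19 in 190 bases, and that from Smarcd1 held 11 in 78 bases. The stretches from Arid1a and Arid1b held 18 in 160 and 24 in 200 bases. Fewer were in the stretches from Smarce1, with 16 in 200 bases, and from Arid2, with 9 in 200 bases, which lies across the end of its island. The stretches just upstream of the genes without a site are given next.
Smarca4, chr9:21615919-21616105, + strand: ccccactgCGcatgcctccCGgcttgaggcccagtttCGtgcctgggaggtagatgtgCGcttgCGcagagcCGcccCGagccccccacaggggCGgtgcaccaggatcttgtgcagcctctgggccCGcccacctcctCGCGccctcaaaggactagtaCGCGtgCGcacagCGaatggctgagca
Smarcb1, chr10:75921641-75921840, - strand: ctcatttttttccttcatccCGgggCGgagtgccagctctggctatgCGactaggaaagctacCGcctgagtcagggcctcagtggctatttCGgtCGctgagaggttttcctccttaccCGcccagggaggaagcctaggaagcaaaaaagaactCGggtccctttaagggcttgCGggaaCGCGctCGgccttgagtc
Smarcc2, chr10:128458986-128459181, + strand: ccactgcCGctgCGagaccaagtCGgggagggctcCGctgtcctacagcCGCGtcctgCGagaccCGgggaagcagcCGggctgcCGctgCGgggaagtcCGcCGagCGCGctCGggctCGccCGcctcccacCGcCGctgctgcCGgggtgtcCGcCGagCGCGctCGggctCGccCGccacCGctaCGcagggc
These 3 stretches held 15 CpG dinucleotides in 187 bases at Smarca4, 12 in 200 bases at Smarcb1 and 30 in 196 bases at Smarcc2. The stretches from Smarca2 and Arid2 do not represent their whole sites, which held 2.5 and 10.4 CpG per 100 bp, and no order between sites and empty promoters is read from these short stretches.

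The ATPase genes differed in that Smarca2 had 2 sites and Smarca4 had none. Smarca2 (chr19:26605050-26778322, + strand) spans 173 kb, and both sites lay toward its 3′ end. The first (chr19:26748083-26748282, 200 bp) was centred 143 kb into the gene, in an intron of the longer transcripts and 6 bp upstream of the start of a protein-coding transcript that begins inside the gene. The start of a curated RefSeq mRNA lay 18 bp upstream of the same centre. The second site (chr19:26749815-26750033, 219 bp) was in coding sequence, 1532 bp beyond the end of the first and 102 bp downstream of the start of a transcript annotated as a target of nonsense-mediated decay. Neither overlapped a CpG island as defined here, although the first did when islands were defined by windows of 200 bp. Their GC contents were 46.5% and 45.7% and they held 2.5 and 3.20 CpG dinucleotides per 100 bp, all below the lower quartiles of all promoter sites (55.5% GC and 5.38 CpG per 100 bp). Here and below, all promoter sites are the 3377 sites centred within 1 kb of a TSS of any annotated gene, noncoding genes included, and 3168 of them were near a protein-coding gene. The 5′ start of Smarca2, in contrast, lay in a CpG island of 3405 bp and had no site within 3 kb. With 42 annotated TSSs, Smarca2 had by far the most positions of the 10 genes at which a site could count as promoter-proximal, the others having between 3 and 7.

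Smarca4 (chr9:21616169-21704230, + strand), which encodes the other ATPase, started in a CpG island of 754 bp. The site nearest to any of its TSSs (chr9:21592788-21593268, 481 bp) was centred 23141 bp upstream of the gene and 200 bp upstream of a TSS of Yipf2. No site lay within the 88.1 kb of Smarca4.

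Among the core subunit genes, Smarcc1, Smarcd1 and Smarce1 had promoter sites and Smarcb1 and Smarcc2 did not. Smarcc1 (chr9:110117708-110240178, + strand), which encodes a scaffold subunit, had 3 sites over 122 kb. The first (chr9:110117006-110117368, 363 bp) was centred 521 bp upstream of the gene start, in a CpG island of 852 bp. It was also centred 79 bp upstream of a TSS of Dhx30, an RNA helicase gene, and the list does not show to which of the 2 genes the site belongs. The second (chr9:110132070-110132306, 237 bp) was centred 14.5 kb into the gene record, 151 bp downstream of an internal TSS and in another CpG island, of 901 bp. A RefSeq mRNA start lay 164 bp upstream of the centre of this site, whereas the first site was 14837 bp upstream of the nearest RefSeq start. The third (chr9:110162441-110162745, 305 bp) was in an intron 44.9 kb from the gene start, outside any island, and with 0.656 CpG per 100 bp it was the poorest in CpG of the 16 sites.

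Smarcd1 (chr15:99702129-99713991, + strand), the shortest of the 10 genes with 11.9 kb, encodes a subunit that links the complex to transcription factors. Its single site (chr15:99702063-99702399, 337 bp) was centred 102 bp downstream of the gene start in the untranslated region and 60 bp upstream of the nearest TSS. It lay in a CpG island of 510 bp, had a GC content of 73.3% and reached into the coding sequence printed above. Smarce1 (chr11:99209047-99231017, - strand) encodes a subunit with an HMG domain that binds DNA. Its site (chr11:99229881-99230711, 831 bp) was centred 721 bp downstream of the gene start and 117 bp downstream of the start of a transcript without coding sequence, and it overlapped a CpG island of 923 bp. The site was wider than 95.1% of all promoter sites. Smarcc1 was thus the core gene with the most sites, and Smarce1 that with the widest.

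Smarcb1 and Smarcc2 were empty although both started in CpG islands. Smarcb1 (chr10:75896769-75921617, - strand), a core subunit gene known as a tumour suppressor, started in an island of 804 bp. Its nearest site (chr10:75932175-75932429, 255 bp) was centred 10685 bp upstream of the gene start and 173 bp downstream of a TSS of Mmp11. Smarcc2 (chr10:128459248-128490482, + strand), the paralogue of Smarcc1, started in an island of 1408 bp, which is longer than both islands with a site at Smarcc1. Its nearest site (chr10:128493162-128493408, 247 bp) was beyond the 3′ end of the gene, 19084 bp downstream of its closest TSS and 254 bp upstream of a TSS of Myl6. The nearest sites of all 3 empty genes were thus centred within 300 bp of a TSS of another protein-coding gene.

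All 3 ARID subunit genes had sites, and Arid1b and Arid2 had the most sequence covered by sites of the 10. Arid1a (chr4:133679008-133756769, - strand) had 1 site (chr4:133754231-133754517, 287 bp). It was centred 2395 bp downstream of the start of the gene record and 392 bp upstream of the nearest TSS, which is that of a transcript with a retained intron. A RefSeq mRNA started 389 bp downstream of the centre. The site lay in a CpG island of 2309 bp and not in the island of 358 bp at the start of the gene record, which had no site.

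Arid1b (chr17:4994332-5347656, + strand) is the longest of the genes with 353 kb and had 6 sites. Of these, 4 were promoter sites and lay next to each other, with gaps of 107, 167 and 84 bp. The first (chr17:4993973-4994702, 730 bp) was centred 6 bp downstream of the gene start. The second (chr17:4994810-4995139, 330 bp) and the third (chr17:4995307-4995828, 522 bp) were in coding sequence, 643 and 1236 bp downstream of the gene start. The fourth (chr17:4995913-4997094, 1182 bp) was centred in an intron 2172 bp downstream. All 4 overlapped the same CpG island of 2806 bp, held between 10.7 and 13.6 CpG per 100 bp, and each had its own nearest TSS at a distance of 6 to 494 bp. Of the 3078 protein-coding genes with a promoter site, 455 (14.8%) had 2 or more and 23 (0.747%) had 4 or more. Among the subunit genes 3 of 7 had 2 or more, namely Smarca2, Smarcc1 and Arid1b. These counts depended on the settings, and the background was not matched for the number of TSSs. When sites within 1 kb of each other were merged, the 4 adjacent Arid1b sites became a single site. The subunit genes then had 9 promoter sites instead of 12. By RefSeq starts, the second Smarca2 site and the first Smarcc1 site were 1521 and 14837 bp away, and only Arid1b kept 2 or more. The 2 remaining sites of Arid1b were intronic and outside CpG islands, at 5.85 kb (chr17:4999838-5000520, 683 bp) and at 241 kb (chr17:5235342-5235541, 200 bp) from the gene start.

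Arid2 (chr15:96287518-96404992, + strand) had the widest site of the subunit genes (chr15:96286737-96289387, 2651 bp). It was centred 544 bp downstream of the gene start and 489 bp downstream of the nearest TSS, and it held 275 CpG dinucleotides. The site ranked 14th in width among 3377 promoter sites and 26th among the 6428 sites on assembled chromosomes. Only 29 promoter sites (0.859%) were 2 kb or wider. A second site (chr15:96285276-96285904, 629 bp) was centred 1928 bp upstream of the gene start, 832 bp before the wide site, and both overlapped a CpG island of 3624 bp. This upstream site was the only one of the 16 between 1 and 3 kb from a TSS of its gene. The promoter site farthest from its TSS was that of Smarcc1, at 521 bp, and the closest site beyond 3 kb was the intronic Arid1b site, at 3750 bp. With all annotated TSSs, no subunit site thus lay near either limit. By RefSeq starts, however, promoter sites of Arid1b, Smarca2 and Smarcc1 fell outside 1 kb, at 1430, 1521 and 14837 bp.

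**Figure D2:**
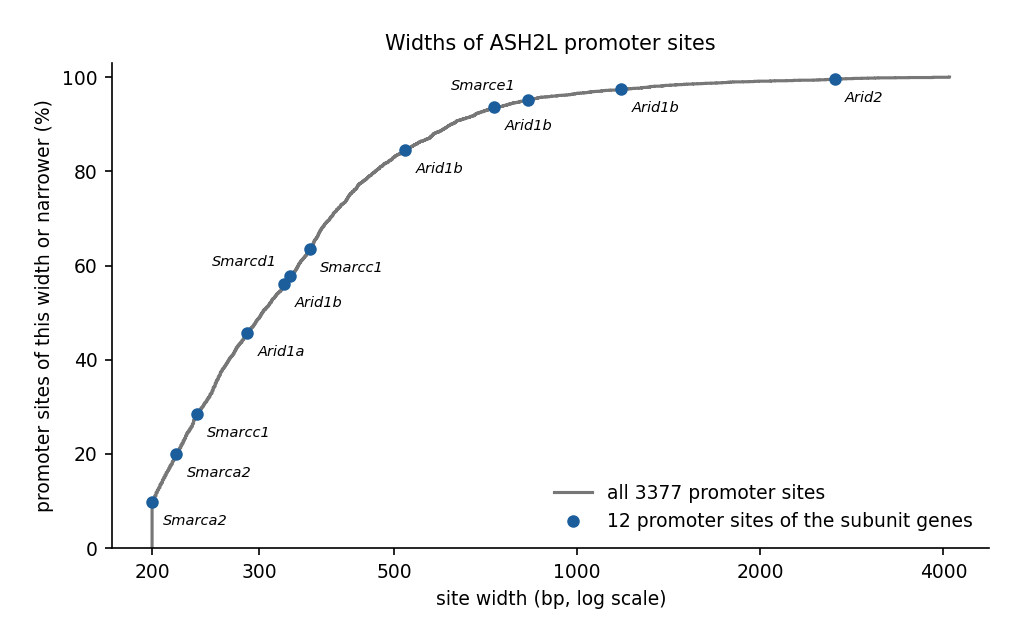
Widths of ASH2L promoter sites. Grey line, percentage of the 3377 promoter sites of all annotated genes, coding or noncoding, that are of a given width or narrower (log scale, bp); blue points, the 12 promoter sites of the subunit genes. The points span nearly the whole range, from 200 bp at Smarca2 to 2651 bp at Arid2.

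The 12 promoter sites of the subunit genes ranged in width from 200 bp to 2651 bp. Their median was 350 bp, compared with a median of 304 bp (quartiles 230 and 423) for all promoter sites. It was 546.5 bp for the 6 sites near the start of a gene record. With sites within 1 kb of each other merged, it was 337 bp for 9 promoter sites. The 3 widest belonged to Arid2, Arid1b and Smarce1, and the 2 narrowest to Smarca2. Summed over all sites within 3 kb of a TSS, the covered sequence was 3280 bp at Arid2, 2764 bp at Arid1b, 831 bp at Smarce1, 600 bp at Smarcc1, 419 bp at Smarca2, 337 bp at Smarcd1 and 287 bp at Arid1a. Among the 3371 genes with such a site, Arid2 ranked 36th and Arid1b 53rd, and the median over all was 347 bp. Widths come from a union over samples and carry no error, so small differences in this order cannot be read.

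The centres of 8 promoter sites were downstream and those of 4 upstream of the nearest TSS of the gene. The median offset was 55.5 bp downstream (range 521 upstream to 494 downstream), compared with 68 bp downstream for all promoter sites. The median depended on the set of TSSs, with 323 bp for the 6 sites near the start of a gene record and 18 bp for the 9 sites near a RefSeq start. Of the 12 sites, 10 (83.3%) overlapped a CpG island, against 2655 of 3377 (78.6%) of all promoter sites. The 10 include the 4 adjacent sites of Arid1b, which share 1 island and enter each median given here separately. The exceptions were both at Smarca2, and with islands from windows of 200 bp only the second of them remained, so that 11 of 12 overlapped. Median GC content was 70.1% and the median CpG density 10.8 per 100 bp, against 65.8% and 9.27 for all promoter sites. These differences are small beside the spread of all promoter sites, whose quartiles were 55.5% and 72.7% for GC content and 5.38 and 12.3 for CpG density.

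The 3 sites that lay in gene bodies and away from every TSS were 1 at Smarcc1 and 2 at Arid1b, so that 2 of the 10 genes had such a site. The background was 5.84% of all protein-coding genes. Of the 6 subunit genes that are at least 50 kb long 2 had such a site, against 17.7% of all protein-coding genes of that length. Smarcc1 and Arid1b measure 122 and 353 kb, and the median length of the 10 genes was 82.9 kb. All 3 of these sites were intronic and outside CpG islands, with 0.656 to 2.34 CpG per 100 bp.

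CpG density at the gene start did not separate subunit genes with a site from those without. Within 1 kb centred on the gene start, the 3 genes without a site had 8.8 (Smarcb1), 9.9 (Smarca4) and 13.5 (Smarcc2) CpG dinucleotides per 100 bp. The 7 genes with a promoter site had between 4.4 (Arid1a) and 12.7 (Arid2), with a median of 7.5. The groups overlapped, and the highest value of the 10 was that of a gene without a site. Over all protein-coding genes the order of the medians was the other way round, with 7.1 at 3078 genes with and 3.3 at 18860 genes without a promoter site. The 2 comparisons are not alike, since all 10 subunit genes had a CpG island near a TSS. Over all protein-coding genes, 2943 of the 3078 with a site but only 9935 of the 18860 without one had such an island. The medians among genes with an island were not compared. At Smarca2 and Arid1a these values describe the start of the gene record, which is not where their sites lay.

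**Figure D3:**
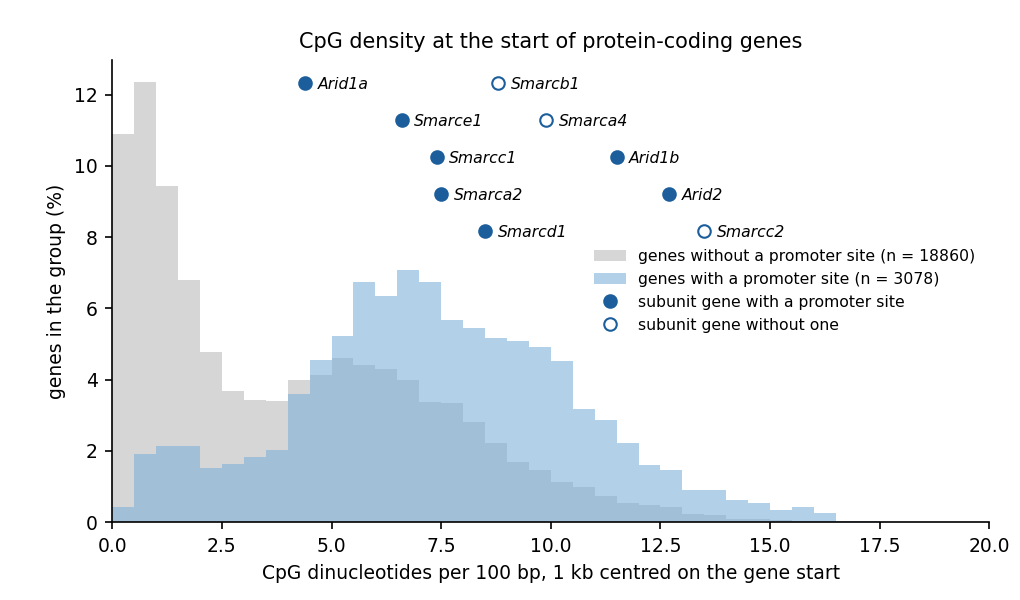
CpG dinucleotides per 100 bp within 1 kb centred on the start of protein-coding genes. Histograms show the percentage of genes with (blue, n = 3078) or without (grey, n = 18860) an ASH2L promoter site; points mark the subunit genes (height has no meaning), filled with and open without a site. The open points, at 8.8, 9.9 and 13.5, lie among the filled ones or above them.

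Short consensus sequences of promoter-binding factors were sought on both strands in the central 200 bp of each promoter site. The sequence GGGGCGGGG (SP/KLF) was present at Smarcc1, in the site shared with Dhx30, and at Smarcd1, and in 5.33% of all promoter sites. AAGATGGCG (YY1) was present at Smarcd1 and in 2.07% of all. No promoter site of the subunit genes held CCGGAAGT (ETS, 5.33% of all), GCGCATGCG (NRF1, 0.592%), CACGTG (E-box, 3.35%), TGACGTCA (CRE, 0.888%), TGACTCA (AP-1, 2.13%) or 1 of the 4 NFY forms CCAATCAG, CCAATCGG, CCAATGAG and CCAATGGG (1.07%). A missing match says only that these letters are not in the window. Over their full width, the Smarce1 site also held the SP/KLF sequence and the intronic Smarcc1 site the AP-1 sequence.

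RefSeq promoter sequences (GRCm38.p6), which run from 250 bp before to 50 bp after a start, were matched by symbol for 8 of the 10 genes, with 2 starts for Arid1a. The windows of these 8 genes held 22 to 48 CpG dinucleotides, compared with a median of 7 over 32851 promoters, and the 48 were at Smarcc2, a gene without a site. The 32851 promoters were not limited to genes with a CpG island, whereas all 10 subunit genes had one near a TSS. An ASH2L site overlapped the windows of Smarcc1, Smarcd1, Arid1b and the second start of Arid1a. The NRF1 sequence was found at Smarcb1 and Smarcc1 (1.75% of all promoters), the AP-1 sequence at Smarca2 and Smarcb1 (5.20%), and the YY1 and SP/KLF sequences at Smarcd1 (1.40% and 11.4%). The windows of Smarca4, Smarcc2, Arid1a and Arid1b held none of the 8 consensus types. Genes with and without an ASH2L site were thus found both among windows with and among windows without a match.

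Other SWI/SNF subunits and other remodellers were counted in the same way. Of 18 other SWI/SNF subunit genes, 8 (44.4%) had a promoter site, namely Smarcd2, Actl6a, Phf10, Pbrm1, Brd7, Ss18, Ss18l1 and Bicral. The site at Ss18l1 was nearer to a TSS of Psma7 (518 bp) than to that of Ss18l1 (642 bp), and the site at Pbrm1 was also 174 bp from a TSS of Gnl3. Ss18 was the only gene of this list with 2 promoter sites, of 237 and 438 bp. Smarcd2, the paralogue of Smarcd1, had a site of 274 bp centred 144 bp downstream of a TSS. Pbrm1 and Brd7, which like Arid2 encode subunits of PBAF, had sites of 390 and 259 bp, so that the wide site of Arid2 had no counterpart at them. Of 26 genes of other remodelling families (ISWI, CHD, INO80 and related ATPases and their partners), 14 (53.8%) had a promoter site. Taking the widest promoter site of each gene, the first in that list were Baz2b (1986 bp), Ep400 (600 bp) and Bptf (466 bp). Baz2b had another of 601 bp, and Baz2b, Baz1a and Chd1 had 2 or more promoter sites each. A CpG island lay near a TSS of 18 of 18 and 25 of 26 genes of these lists. With 10, 18 and 26 genes the shares of 70%, 44.4% and 53.8% differ by a few genes and no difference between the lists was tested.

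**Figure D4:**
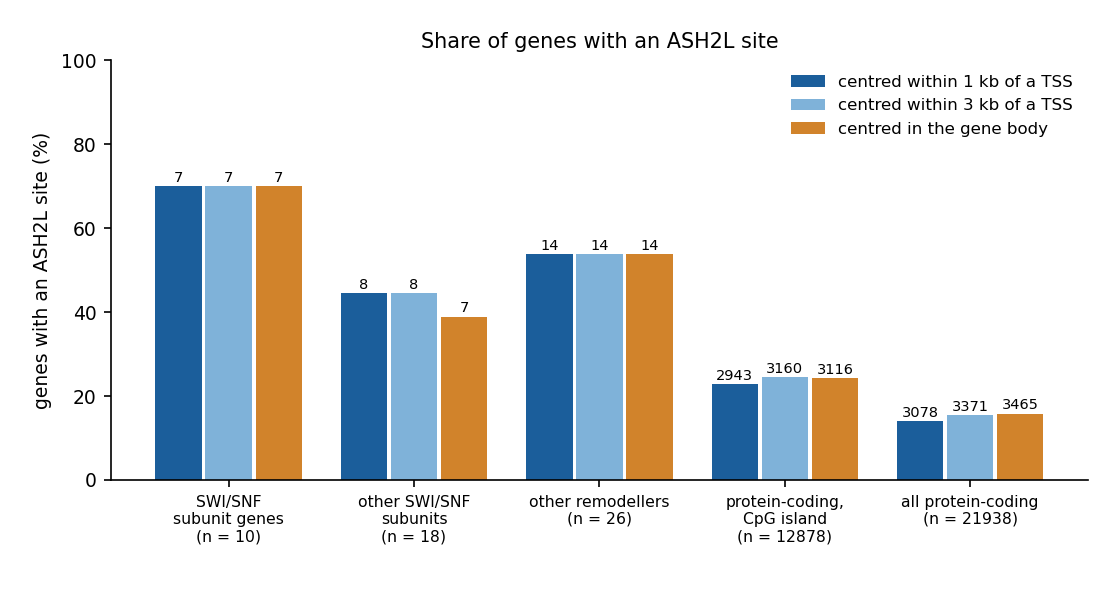
Percentage of genes with an ASH2L site centred within 1 kb or 3 kb of a TSS or in the gene body, for the subunit genes, 18 other SWI/SNF subunit genes, 26 genes of other remodelling families, protein-coding genes with a CpG island and all protein-coding genes. Numbers above the bars count genes with a site. The subunit genes reach 70% (7 of 10), the other SWI/SNF subunit and remodeller genes 38.9% to 53.8%, protein-coding genes with a CpG island 22.9% to 24.5%, and all protein-coding genes 14.0% to 15.8%.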

How the data were processed

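ASH2L ChIP-seq of iMEF cells was analysed from 1 deposited list. Per the labels and the study's methods, the authors used Trim Galore for trimming, BWA for alignment to mm10, Picard for merging and MACS2 for narrow peaks (versions not given in the sources used here). The deposited values in the list used here are site positions, with no count, score or p-value, so depth and precision per sample are not shown and no stricter peak threshold could be applied. A further list named in the study, of sites changed at 1 h of dTAG, was not used here. The labels name an Ash2l antibody and the study's methods an HA antibody. Starts were read as counted from 0, and positions are printed counted from 1. Each of 6428 sites on 21 assembled chromosomes was represented by its centre. TSSs came from GENCODE mouse release 21 (release 25 was used by the authors). The other 16 sites were left out. CpG islands were computed from GRCm38.p6 by a running score (17 per CpG, -1 per other base), with at least 200 bp, over 50% GC and an observed to expected ratio over 0.6. Printed sequences avoid untranslated regions of GENCODE and RefSeq.

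The members and the other gene lists were chosen with earlier results of these data known. All 10 members are named, with every other SWI/SNF gene that has a promoter site, the 3 other remodellers with the widest promoter site, and those with 2 or more. No test was made, since the list has no value for any of the 8 libraries. Alternatives changed TSS sets, windows, widths, merging and islands. Functions were tested on simulated data. Python 3.11.15, NumPy 2.4.6, pandas 2.3.3, numba 0.67.0 and matplotlib 3.10.9 were used.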

Additional observations from a re-analysis of the deposited data

How the results depend on the processing

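Of 54 alternative values for 10 results, 50 stayed within 1.5 times the count or within the spread of the sites. Using only the start of the gene record reduced the promoter sites of the subunit genes from 12 to 6 and the genes with one from 7 to 5, with Smarca2 and Arid1a lost, while the share of all protein-coding genes fell to 12.3%. It moved the median width of these sites from 350 to 546.5 bp and their median offset from 55.5 to 323 bp. Leaving out sites narrower than 250 bp removed Smarca2 and left 6 genes. It lowered the share of all protein-coding genes with a site in the gene body to 10.5%. Counting only the gene body farther than 1 kb from every TSS left 2 subunit genes and 5.84% of all. Merging sites within 1 kb of each other left 7 genes with 9 promoter sites, with a median width of 337 bp. The adjacent promoter sites of Arid1b then formed a single site. Islands defined by windows of 200 bp, curated RefSeq starts and repeat-masked islands were chosen after seeing the data. With the windows, 11 of 12 promoter sites overlapped an island, the added one being the first site of Smarca2. With RefSeq starts, 7 genes and 9 promoter sites remained, with a median offset of 18 bp. No paired analysis was possible because the list holds no value per sample, and leaving out a replicate was not possible for the same reason.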
